A study of Mus musculus with 4 samples.

Results

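Growth plate-like chondrocytes (GPLC), a cell line from the mouse, were compared after 10 and after 5 days of culture. The comparison was chosen by day: the 4 libraries of day 10 stood against the 4 libraries of day 5, which are 8 of the 15 libraries in a time course that also holds days 1 and 3. Both groups were untreated wild-type cells grown in the same medium with fetal bovine serum, ascorbic acid, insulin, transferrin and selenium, so they differ by label only in their time in culture. RNA was taken from cells that the labels' protocol calls sorted, with the gate not given in the sources used here, and ribosomal RNA was removed before library preparation. The labels list 1 sample for each day while the table holds 4 columns for each of these 2 days, and they do not say what the column numbers stand for. The columns are called libraries 1 to 4 of a day below, in that order, and the p-values measure only the spread between them, which may be technical.

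The growth plate is the cartilage that lengthens bones. Its chondrocytes divide, leave the cell cycle, enlarge into hypertrophic cells that secrete collagen X, and then mineralize their matrix. Indian hedgehog (Ihh), secreted by cells entering hypertrophy, acts through the receptor patched (Ptch1) and the Gli transcription factors, and parathyroid hormone-related protein (PTHrP, gene Pthlh), acting on Pth1r, holds cells back from hypertrophy. Runx2 and Sp7 drive late maturation, and mineral forms where the phosphatases Alpl and Phospho1 release phosphate while Enpp1 makes the mineral inhibitor pyrophosphate. Osteoblasts, the bone-forming cells, use most of the same late genes.

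Between 14544289 and 18841621 reads were assigned to genes in each of the 8 libraries. Values are the deposited counts scaled to library size (CPM) after TMM scaling, a scaling between libraries that rests on the bulk of the genes, and the 12109 genes whose 4 day means averaged at least 1 CPM were tested. Col2a1 and Sox9, genes that define chondrocytes, were expressed on both days. Col2a1, the main collagen of cartilage, stood at 1796 to 5142 CPM over the day 5 libraries and 1262 to 12719 CPM over those of day 10, and Sox9, the master transcription factor of cartilage, at 111 to 233 and 64.8 to 287 CPM. Col1a1, a chain of type I collagen, lay above Col2a1 in each of the 8 libraries, at 5336 to 9548 and 7793 to 61215 CPM. The libraries of day 10 differed more among themselves: the median SD of a gene on the log2 scale was 0.278 on day 10 and 0.190 on day 5, and Pearson's r between libraries across genes was 0.920 to 0.978 and 0.967 to 0.995. On the first principal component of the 8 libraries, which held 41.1% of the variance, the day 5 libraries lay between -30.0 and -7.51. Day 10 libraries 1 to 4 lay at 22.8, 57.2, -1.77 and 5.83, so library 2 of day 10 stood farthest from day 5. Libraries 3 and 4 of day 5 were the closest pair (r = 0.995). Their reads differed beyond counting error (chi-square over its degrees of freedom 14.7), but less than in the other pairs of a day (49.1 to 216). A difference beyond counting error cannot show that they came from separate cultures. They were kept as separate replicates.

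More genes passed as higher on day 10 than as lower. Limma's test, fitted over all 15 libraries with Benjamini-Hochberg adjustment at 0.05, found 454 genes higher (3.75% of those tested) and 245 lower (2.02%), 5.77% in either direction. The words rose and fell are kept for genes that passed this test. A log2 difference is the day 10 mean minus the day 5 mean of log2(CPM + 1), a scale that understates changes of genes near 0. By size alone 376 genes (3.11%) had doubled or more and 53 (0.438%) had halved or more, a log2 difference of at least 1 in size, and 228 and 33 of these also passed the test. In 753 genes (6.22%) every day 10 library lay above every day 5 library, and in 642 (5.3%) below, of which 390 and 214 passed. The balance of this last count turned without TMM scaling (651 above and 733 below) and without library 2 of day 5 (1271 and 1284). The median log2 difference of all genes was -0.0171.

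The counts depended on which libraries were fitted and on the pairing. Same-numbered libraries of the days deviated together, and with the library number as a replicate block 871 genes (7.19%) were higher and 636 (5.25%) lower, all 454 and 245 of the first fit among them. Fitted on the 8 libraries of days 5 and 10 alone, the counts were 115 (0.95%) and 21 (0.173%), and with the block on those 8 libraries 234 (1.93%) and 59 (0.487%). The unblocked fit over all days gave 191 and 68 without library 3 of day 5, 199 and 67 without library 4 of day 5, and 380 lower without library 3 of day 10. Of the 93 genes that are named here and passed, 43 passed whichever single library was left out and 29 passed in the fit of the 8 libraries alone, or 60 with the block there. With a variance for each day in limma's fit 56 of the 93 passed. Enpp1 (adjusted p = 0.23), Cdsn (0.0997) and Col10a1 (0.086) were among those that did not. With libraries 3 and 4 of each day averaged, 26 of the 93 passed, and over all genes 81 were higher and 14 lower. Of the 25 gene lists with a member that rose, the number of such members fell by more than 1.5 times in 19 without library 3 of day 5, in 18 without library 4 of day 5 and in 22 in the fit of the 8 libraries alone. Library 2 of day 10 was the highest of its day in 232 of the 454 genes that rose. Without it 421 genes were higher and 178 lower.

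**Figure D1:**
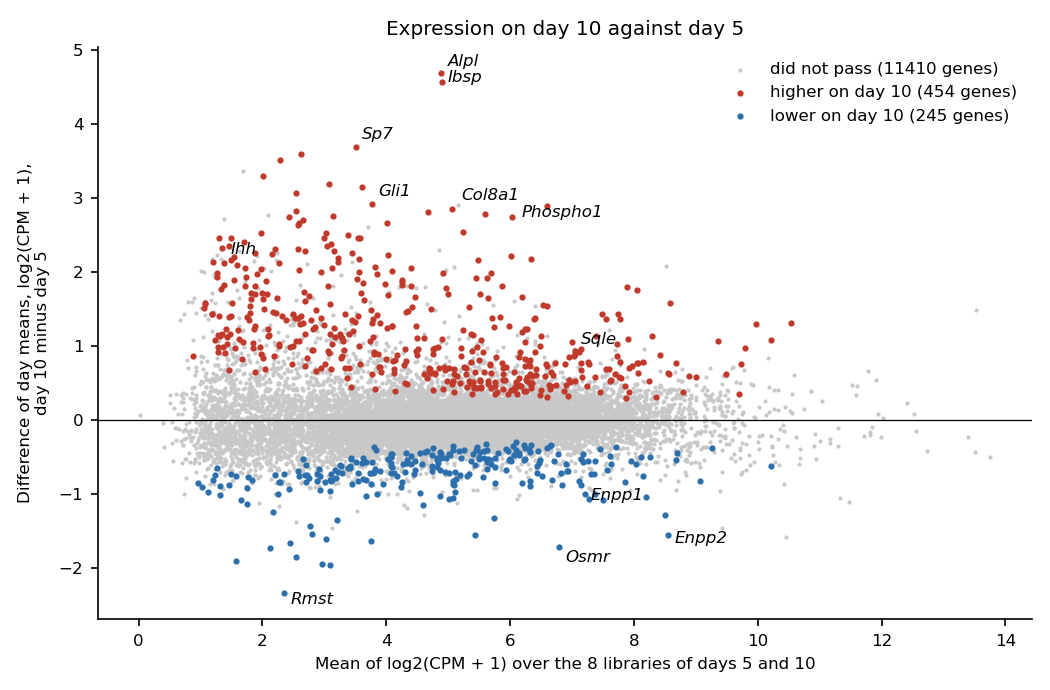
Each point is 1 of 12109 genes, placed by its mean log2(CPM + 1) over the 8 libraries (horizontal axis) and by its log2 difference, day 10 minus day 5 (vertical axis). Red marks the 454 genes that passed limma's test as higher on day 10 and blue the 245 that passed as lower, and the red points reach farther from 0 than the blue ones.

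Genes that make and mineralize bone matrix held the highest differences. Alpl, tissue-nonspecific alkaline phosphatase (chromosome 4, 137741733 to 137796384, GRCm38), stood at 8.28, 21.8, 1.71 and 1.02 CPM in libraries 1 to 4 of day 5 and at 297, 664, 51.7 and 48.2 CPM in those of day 10. Every day 10 library lay above every day 5 library, with libraries 1 and 2 far above 3 and 4, and the log2 difference was 4.69 ± 0.82 (SE, adjusted p = 0.0042). Phospho1, which frees phosphate from phosphocholine inside matrix vesicles, went from 34.2, 22.2, 21.2 and 21.9 CPM to 161, 592, 75.3 and 111 CPM. The groups did not overlap (log2 2.74 ± 0.43, adjusted p = 0.0019), though 89.6% of its annotated exon bases also belong to Zfp652 on the same strand, so part of its reads may be counted for either gene. Smpd3, a sphingomyelinase needed for matrix mineralization, read 113, 48.8, 14.9 and 16.96 CPM on day 5 and 331, 907, 109.8 and 146 CPM on day 10 (log2 2.89 ± 0.66, adjusted p = 0.020). Its groups overlapped, since library 1 of day 5 lay just above library 3 of day 10.

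Phex, an endopeptidase that degrades inhibitors of mineral growth, rose, with 1.86 to 5.99 CPM over the day 5 libraries and 5.95 to 58.4 CPM over those of day 10 (log2 2.06 ± 0.46, adjusted p = 0.019), and Fam20c, the kinase that phosphorylates secreted matrix proteins, rose with 30.8 to 39.0 CPM and 42.7 to 63.6 CPM (log2 0.51 ± 0.12, adjusted p = 0.025). Enpp1, which produces pyrophosphate, moved the other way, from 188, 178, 201 and 203 CPM to 88.7, 120.1, 113 and 94.0 CPM. All 4 day 10 libraries lay below all 4 of day 5 and within a narrow range (log2 -0.89 ± 0.23, adjusted p = 0.036). Ank, which exports ATP and pyrophosphate, had a log2 difference of -0.40 that did not pass (adjusted p = 0.10). In all, 5 of the 16 measured mineralization enzymes and transporters rose and 1 fell (list median 0.17). Alpl and Phospho1 passed whichever single library was left out. The call was lost for Smpd3 and Phex without library 3 or 4 of day 5, Fam20c without library 1 or 3 of day 5, and Enpp1 without library 1, 3 or 4 of day 5 or library 1 or 4 of day 10 (adjusted p = 0.058 to 0.10 over these losses). In the fit of the 8 libraries alone, Phospho1 and Enpp1 passed and the others did not (adjusted p = 0.056 to 0.14). Alpl, Smpd3 and Phex passed there with the block (adjusted p = 6.5e-05 to 0.017).

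The list of bone matrix proteins (16 measured, median 0.57) held 2 genes that rose and 0 that fell. With the replicate block 5 were higher and 1 lower. Without a block, edgeR called 6 members of the list and DESeq2 called 8. Ibsp, bone sialoprotein (chromosome 5, 104299171 to 104311469), stood at 11.2, 26.8, 1.04 and 1.02 CPM on day 5 and 324, 1824, 35.5 and 19.7 CPM on day 10 (log2 4.57 ± 1.12, adjusted p = 0.027). Library 4 of day 10 lay below library 2 of day 5, so the days overlapped in spite of the size of the mean difference. Bglap2, one of the near-identical osteocalcin genes, rose from 0.282, 0.634, 0.244 and 0.300 CPM to 8.23, 29.3, 1.26 and 1.43 CPM (log2 2.21 ± 0.59, adjusted p = 0.040), without overlap. Its copy Bglap, at 0 to 0.922 and 0.226 to 18.9 CPM, did not pass limma's test (adjusted p = 0.13) but passed with edgeR (0.040) and DESeq2 (0.041). The counting could split reads between these copies, so each value is uncertain.

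Limma's test over all 15 libraries, without the block, did not call type I collagen, the main protein of bone. EdgeR and DESeq2 called it without a block, with adjusted p = 0.038 and 0.012 for Col1a1 and 0.038 and 0.0024 for Col1a2. Col1a1 read 9548, 8569.9, 5336 and 5637 CPM on day 5 and 15623, 61215, 7793 and 20013 CPM on day 10 (log2 1.48 ± 0.50, adjusted p = 0.091), and with the replicate block it passed (adjusted p = 0.023, with 0.012 to 0.62 over all alternatives). Col1a2 read 224, 324, 117 and 117 and then 1122, 7766, 144 and 258 CPM (log2 2.08 ± 0.86, adjusted p = 0.16, with the block 0.041 and over all alternatives 0.0024 to 0.37). In both genes library 2 of day 10 was far above the rest and library 3 of day 10 lay within the range of day 5. Spp1, osteopontin, stood at 362 to 909.7 CPM on day 5 and 510.4 to 749 CPM on day 10 (adjusted p = 0.50), and Dmp1, an osteocyte matrix protein, at 5.55 to 27.2 and 8.61 to 40.1 CPM (adjusted p = 0.67). The threshold was missed for Ibsp without library 3 or 4 of day 5 or library 1 of day 10, and Bglap2 without library 1, 2, 3 or 4 of day 5 or library 1 of day 10 (adjusted p = 0.052 to 0.11 over these losses). Fitted without days 1 and 3, none of the called genes just described passed (adjusted p = 0.16 to 0.19). Ibsp passed there with the block (adjusted p = 0.0049).

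**Figure D2:**
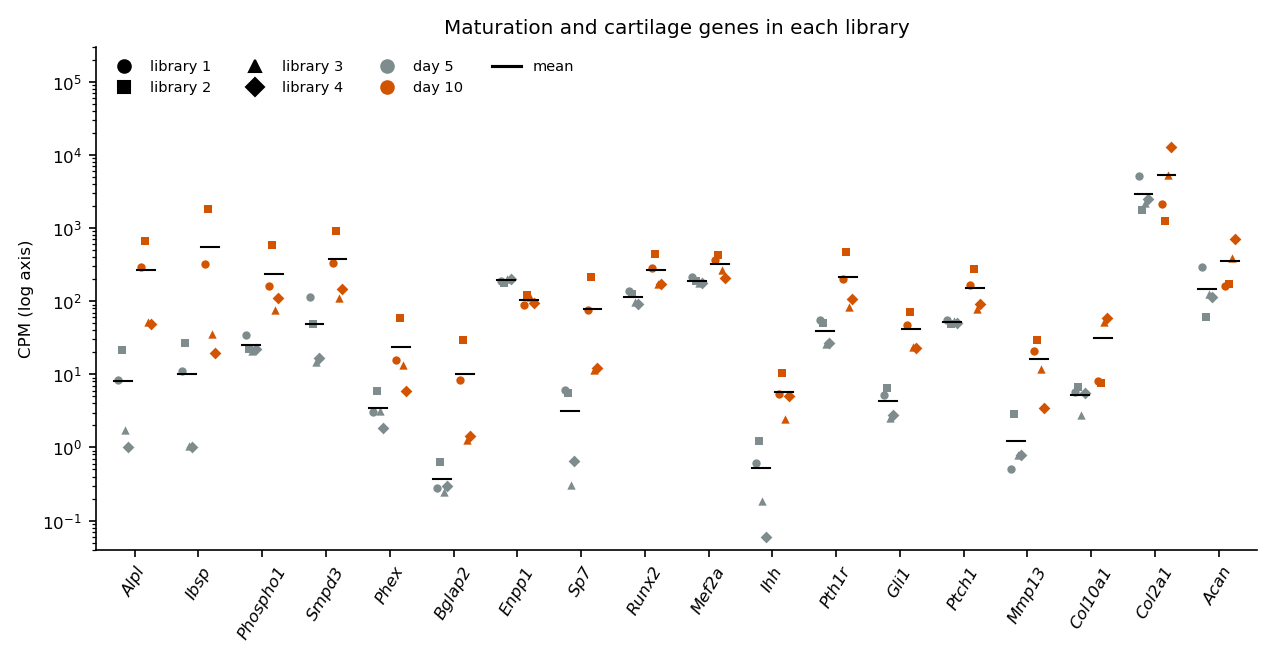
The deposited value of 18 maturation and cartilage genes (CPM, log axis) is drawn for each library of day 5 (grey) and day 10 (orange), with a marker shape for each library number and a bar at the mean. Library 2 of day 10 (square) is the highest of its day for Alpl, Ibsp, Phospho1 and Sp7, while libraries 3 and 4 (triangle and diamond) are the highest for Col10a1, Col2a1 and Acan.

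Markers of osteoblasts and osteocytes moved with these genes. Of the 16 markers 13 were measured, 7 rose and 0 fell (list median 2.06), and 14 of the 16 also belong to another of the lists described here. Their summed level was 5508 to 9865 CPM over the day 5 libraries and 8151 to 72328 CPM over those of day 10. Col1a1 alone, which did not pass limma's test without the block, made up 94.9 to 97.02% and 84.6 to 97.6% of it. The other markers summed to 172 to 462 and 358 to 11112 CPM. In each library 14 to 16 of the 16 genes were above 0. The part of osteoblast-like cells in the differences was not tested. In bulk RNA a larger share of such cells and more RNA per cell cannot be told apart. Without library 2 of day 10 the markers that rose still numbered 7, without library 3 or 4 of day 5 they numbered 2, and in the fit of the 8 libraries alone 0.

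Several transcription factors of late maturation rose. Sp7 (osterix), required for osteoblast formation and for the last steps of hypertrophy (chromosome 15, 102356606 to 102367182), stood at 6.02, 5.59, 0.305 and 0.659 CPM on day 5 and 76.3, 214, 11.6 and 12.4 CPM on day 10. No day 10 library reached down to day 5, and library 2 of day 10 held the highest value (log2 3.69 ± 0.78, adjusted p = 0.014). Runx2, the regulator of both hypertrophy and osteoblast fate, read 139, 126, 96.7 and 91.9 CPM and then 284, 442, 174 and 169 CPM (log2 1.14 ± 0.25, adjusted p = 0.017). Runx2 was thus well above 0 on day 5 already, without overlap between the days, while Sp7 began near 0 in libraries 3 and 4.

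Mef2a, a MADS-box factor, stood at 176 to 215 CPM over the day 5 libraries and 209.8 to 435 CPM over those of day 10, and rose (log2 0.70 ± 0.18, adjusted p = 0.038), with overlap. Its relative Mef2c, which activates Col10a1 in the mouse growth plate, did not pass, and was high in library 2 of day 10 alone (log2 0.52 ± 0.31, adjusted p = 0.32). Runx3 (log2 0.61 ± 0.29, adjusted p = 0.22) did not pass, and the homeobox factor Dlx5 (log2 0.81 ± 0.24, adjusted p = 0.061) passed with the block (adjusted p = 0.0095, with 0.0082 to 0.45 over all alternatives). Of 20 measured factors on this list 4 rose and 0 fell (list median 0.56), 18 of the 20 differences lay above 0, and with the block 10 rose. Adjusted p rose above 0.05 for Sp7 and Runx2 without library 3 or 4 of day 5, and Mef2a without library 2, 3 or 4 of day 5 or library 1 or 2 of day 10 (adjusted p = 0.052 to 0.11 over these losses). With days 1 and 3 out of the fit, none of the called genes just described passed (adjusted p = 0.10 to 0.15). Sp7 and Runx2 passed there with the block (adjusted p = 0.0049 to 0.025).

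The 250 bases before the start of the named late genes and of the 20 genes with the highest and lowest differences were read for the RUNX motif TGTGGT, on either strand, in RefSeq sequence of GRCm38.p6. Of 30 genes looked up 23 had a window, 28 windows in all, and 4 of these held a match, beside 14.05% of all 32851 promoter windows of that length. The motif was thus about as frequent here as elsewhere. The windows of Runx2, Mmp13 and Enpp1 are shown because these genes carry the described changes in opposite directions, read 5′ to 3′ toward the start site, with the RUNX motif (as ACCACA, the other strand) and in Mmp13 the AP-1 motif TGANTCA in capitals.
Runx2 (chr17:44814628-44814877, minus strand): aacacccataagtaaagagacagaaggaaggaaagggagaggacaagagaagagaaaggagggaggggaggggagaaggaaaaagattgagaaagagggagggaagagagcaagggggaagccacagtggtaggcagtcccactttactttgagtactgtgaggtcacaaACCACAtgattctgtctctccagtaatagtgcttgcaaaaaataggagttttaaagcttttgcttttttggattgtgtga
Mmp13 (chr9:7272264-7272513, plus strand): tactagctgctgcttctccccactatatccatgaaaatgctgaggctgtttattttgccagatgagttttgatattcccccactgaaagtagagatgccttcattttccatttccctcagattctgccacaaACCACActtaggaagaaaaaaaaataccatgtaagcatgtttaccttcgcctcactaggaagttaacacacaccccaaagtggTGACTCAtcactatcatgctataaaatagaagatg
Enpp1 (chr10:24712160-24712409, minus strand): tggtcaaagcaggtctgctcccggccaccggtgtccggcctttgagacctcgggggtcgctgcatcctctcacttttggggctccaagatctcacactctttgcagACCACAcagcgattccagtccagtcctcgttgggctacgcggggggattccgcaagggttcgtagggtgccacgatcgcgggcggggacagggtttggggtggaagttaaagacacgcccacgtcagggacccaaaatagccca
The RUNX match starts 80 bases before the start of Runx2, 118 before that of Mmp13 and 144 before that of Enpp1, and the AP-1 match 35 bases before that of Mmp13. Col8a1 held the fourth RUNX match, 230 bases before its start. The other motifs searched were AP-1 (6.749% of all windows), the homeobox motif TAATTA (4.84%) and the SOX motif ACAAAG (16.46%), each on both strands. A match names letters in the window and does not show that a factor binds there.

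The ligand, the receptor and transcription factors of the hedgehog pathway rose. Ihh, the ligand, read 0.619, 1.21, 0.183 and 0.0599 CPM in the day 5 libraries and 5.32, 10.27, 2.46 and 5.12 CPM in those of day 10, without overlap (log2 2.10 ± 0.30, adjusted p = 0.0012). Its receptor Ptch1, itself a target of the pathway, read 54.8, 49.3, 52.8 and 49.7 CPM and then 166, 278, 77.7 and 92.6 CPM (log2 1.37 ± 0.28, adjusted p = 0.012). Gli1, the transcription factor most often used as a readout of hedgehog activity (chromosome 10, 127329882 to 127341974), read 5.18, 6.57, 2.50 and 2.76 CPM and then 46.7, 72.0, 23.6 and 22.9 CPM (log2 2.92 ± 0.37, adjusted p = 0.00043). None of the 3 overlapped between the days, and in each of them libraries 1 and 2 of day 10 lay above libraries 3 and 4.

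Gli2, an activator upstream of Gli1, rose, with 13.7 to 18.1 CPM over day 5 and 25.3 to 39.8 CPM over day 10 (log2 0.87 ± 0.22, adjusted p = 0.029). Pth1r, through which PTHrP acts (chromosome 9, 110722085 to 110747145), read 54.8, 50.2, 25.9 and 26.9 CPM on day 5 and 204, 475, 83.7 and 106 CPM on day 10 (log2 2.17 ± 0.49, adjusted p = 0.019), with no overlap. Its ligand Pthlh stayed low on both days, at 0.788, 0.403, 1.28 and 1.02 CPM and 2.09, 1.49, 2.04 and 1.81 CPM. It passed limma's test with the block but not in the main fit (log2 0.63 ± 0.19, adjusted p = 0.067, with the block 0.045 and over all alternatives 0.037 to 0.53). DESeq2 called it without a block (adjusted p = 0.037). Of the 17 measured genes of the hedgehog and PTHrP list 5 rose and 0 fell (list median 0.28), and with the block 6 were higher and 2 lower. Ihh, Ptch1 and Gli1 passed whichever single library was left out. Leaving out 1 library ended the call for Gli2 without library 2, 3 or 4 of day 5 or library 4 of day 10, and Pth1r without library 3 or 4 of day 5 (adjusted p = 0.057 to 0.082 over these losses). On the 8 libraries alone, Ihh, Gli1 and Gli2 passed and the others did not (adjusted p = 0.078 to 0.095). Pth1r passed there with the block (adjusted p = 0.0090).

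Hypertrophic matrix genes rose in different libraries. Mmp13, the collagenase that clears hypertrophic cartilage (chromosome 9, 7272514 to 7283331), read 0.507, 2.88, 0.793 and 0.779 CPM on day 5 and 20.7, 29.6, 11.8 and 3.46 CPM on day 10 (log2 2.75 ± 0.45, adjusted p = 0.0026), with its highest values in libraries 1 and 2. Col10a1, the collagen that marks hypertrophic chondrocytes (chromosome 10, 34389981 to 34397085), read 5.80, 6.63, 2.74 and 5.51 CPM and then 8.11, 7.63, 51.2 and 59.6 CPM. Here libraries 3 and 4 of day 10 were high, while libraries 1 and 2 lay only just above the highest day 5 library (log2 1.90 ± 0.53, adjusted p = 0.049). Its mean on day 1 had been 164 CPM, above that of day 10 (31.6 CPM).

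Mmp3, stromelysin, rose from 0.113, 0.519, 0.0610 and 0.300 CPM to 3.36, 2.47, 6.17 and 3.62 CPM (log2 1.94 ± 0.22, adjusted p = 0.00024), and Htra1, a secreted serine protease, from 32.3, 25.9, 37.8 and 43.6 CPM to 76.7, 129.5, 73.8 and 93.4 CPM (log2 1.38 ± 0.21, adjusted p = 0.0014). These proteases were high in all 4 libraries of day 10. Of 19 measured hypertrophic matrix genes and proteases 4 rose and 0 fell (list median 0.32). With any single library left out, Mmp13, Mmp3 and Htra1 still passed. The call was lost for Col10a1 without library 1, 2, 3 or 4 of day 5 or library 3 or 4 of day 10 (adjusted p = 0.058 to 0.15). When days 1 and 3 were left out, Mmp13, Mmp3 and Htra1 passed and Col10a1 did not (adjusted p = 0.20).

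The genes of permanent and growing cartilage did not move in a common direction, though the larger differences were upward. Of 22 measured cartilage matrix genes 4 rose (18.2%, beside 3.75% of all genes) and 0 fell. Of the differences 11 were above 0 and 11 below, and the list median was 0.08. By size alone 7 members had doubled or more and 0 had halved, beside 3.11% and 0.438% of all genes. Cilp2, a cartilage intermediate layer protein, stood at 11.5 to 18.1 CPM on day 5 and 52.2 to 177 CPM on day 10 (log2 2.54 ± 0.36, adjusted p = 0.0011), and its relative Cilp at 4.02 to 22.2 and 19.8 to 59.3 CPM (log2 1.87 ± 0.46, adjusted p = 0.027). Col11a2, a chain of the collagen that nucleates cartilage fibrils, read 318, 125, 90.4 and 116 CPM and then 423, 936, 259 and 547 CPM (log2 1.76 ± 0.48, adjusted p = 0.043), with library 3 of day 10 inside the day 5 range. Matn4, matrilin-4, read 59.2, 39.1, 51.1 and 57.0 CPM and then 95.8, 86.4, 140.0 and 270.2 CPM (log2 1.37 ± 0.32, adjusted p = 0.023), without overlap.

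Col2a1 read 5142, 1796, 2183 and 2513 CPM on day 5 and 2135, 1262, 5271 and 12719 CPM on day 10 (log2 0.46 ± 0.56, adjusted p = 0.66). The proteoglycan aggrecan (Acan) read 296, 61.2, 126 and 112 CPM and then 162, 169, 394 and 702 CPM (log2 1.21 ± 0.51, adjusted p = 0.16). In both genes libraries 3 and 4 of day 10 lay above libraries 1 and 2, the reverse of Alpl, Ibsp and Sp7, and the days overlapped. Comp, which crosslinks the cartilage matrix, did not pass either (log2 0.70 ± 0.37, adjusted p = 0.27). The result for Cilp2 held in all 8 fits without 1 library. The threshold was missed for Cilp without library 3 or 4 of day 5 or library 1 or 2 of day 10, Col11a2 without library 2, 3 or 4 of day 5 or library 1, 2 or 4 of day 10, and Matn4 without library 3 or 4 of day 5 (adjusted p = 0.054 to 0.14 over these losses). In the fit of the 8 libraries alone, Cilp2 passed and the others did not (adjusted p = 0.083 to 0.13). Cilp and Matn4 passed there with the block (adjusted p = 0.0049 to 0.032).

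Among transcription factors of early cartilage few differences passed. Sox9 read 233, 111, 151 and 155 CPM on day 5 and 115, 64.8, 224 and 287 CPM on day 10 (log2 -0.08 ± 0.36, adjusted p = 0.92), with libraries 1 and 2 of day 10 below libraries 3 and 4. Within libraries 3 and 4 alone it was higher on day 10 (log2 0.72, adjusted p = 0.013, with 0.013 to 0.96 over all alternatives), and the sign of its difference also turned without library 1 of day 5 (0.11), library 1 of day 10 (0.038) or library 2 of day 10 (0.31). Sox5 and Sox6, its partners, had log2 differences of -0.23 and -0.16 that did not pass (adjusted p = 0.56 and 0.71). Pax9, a paired-box factor of embryonic cartilage precursors, was the 1 gene of the 18 measured chondrogenic regulators that passed. It fell from 20.8, 20.4, 31.4 and 27.7 CPM to 15.1, 14.9, 13.3 and 10.32 CPM, without overlap (log2 -0.84 ± 0.16, adjusted p = 0.0072). Limma called 0 of the 13 measured genes of resting and round chondrocytes (4 at an unadjusted p under 0.05, edgeR 0, DESeq2 3), with a list median of -0.45. That list lay lower in libraries 1 and 2 of day 10, with medians of -0.57 and -0.72 relative to day 5, than in libraries 3 and 4, with 0.012 and 0.018. Pax9 passed whichever single library was left out. Fitted without days 1 and 3, Pax9 did not pass (adjusted p = 0.072).

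**Figure D3:**
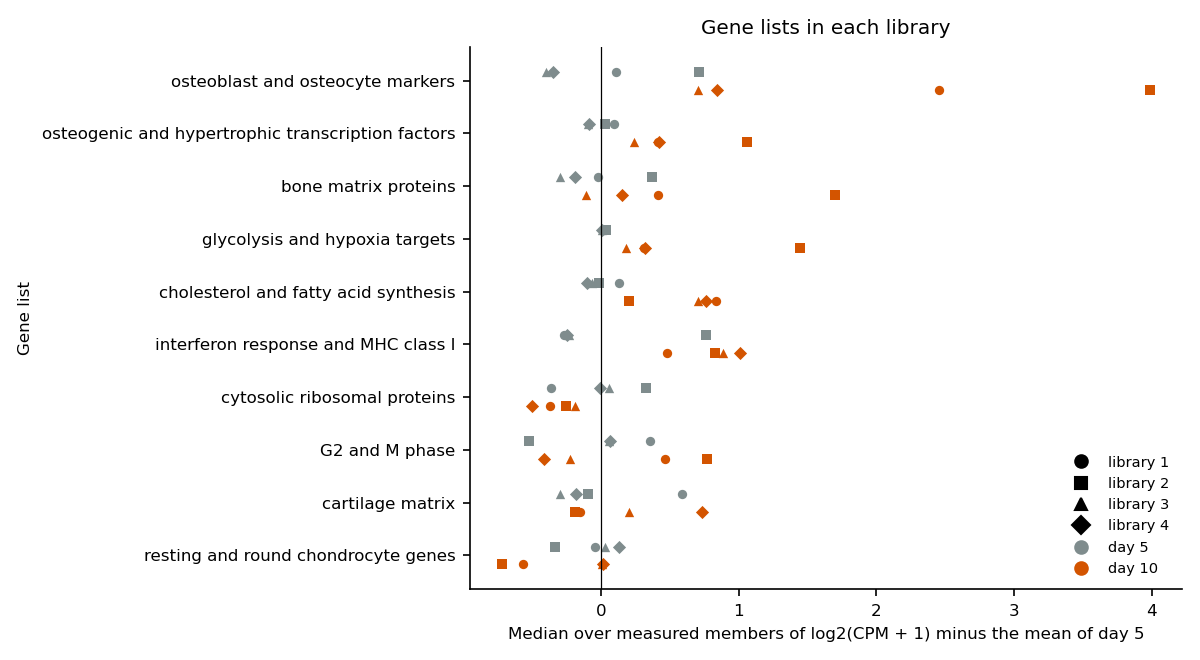
For 10 gene lists the median over measured members of log2(CPM + 1) minus the gene's day 5 mean is drawn for each library of day 5 (grey) and day 10 (orange). The osteoblast and osteocyte markers stand at 2.46 and 3.98 in libraries 1 and 2 of day 10 and at 0.70 and 0.84 in libraries 3 and 4, while the cartilage matrix list stands highest in libraries 3 and 4.

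Among the other signals the Wnt list held the most called genes by number, though not by share. Of 29 measured Wnt ligands, receptors and targets 7 rose (24.1%, beside 3.75% of all genes) and 0 fell (list median 0.37). With the block 11 rose. The number that rose was 3 without library 3 or 4 of day 5, 5 without library 2 of day 10 and 1 in the fit of the 8 libraries alone. Wnt5a, a ligand that acts without beta-catenin, read 6.02, 14.2, 5.43 and 5.27 CPM on day 5 and 18.05, 41.0, 15.7 and 18.5 CPM on day 10 (log2 1.48 ± 0.30, adjusted p = 0.011). Its receptor Ror1 read 0.563, 0.807, 0.671 and 0.419 CPM and then 6.14, 7.29, 5.91 and 3.84 CPM (log2 2.05 ± 0.23, adjusted p = 0.00021). Both were higher in every day 10 library than in any of day 5, and Ror1 rose nearly evenly over the 4. Lgr5, a receptor for R-spondins that amplifies Wnt signals, read 149.8, 125, 132 and 137 CPM and then 338, 158, 545 and 522 CPM (log2 1.37 ± 0.33, adjusted p = 0.025), lowest on day 10 in library 2. Rnf43, which removes Wnt receptors from the surface, stood at 0.488 to 3.57 and 3.03 to 13.2 CPM (log2 1.46 ± 0.39, adjusted p = 0.041). With any single library left out, Wnt5a and Ror1 still passed. Leaving out 1 library ended the call for Lgr5 without library 3 or 4 of day 5 or library 4 of day 10, and Rnf43 without library 1, 3 or 4 of day 5 or library 1, 2 or 4 of day 10 (adjusted p = 0.05006 to 0.14 over these losses). With days 1 and 3 out of the fit, Ror1 passed and the others did not (adjusted p = 0.090 to 0.16). Wnt5a and Rnf43 passed there with the block (adjusted p = 0.0049 to 0.010).

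Of the growth hormone and insulin-like growth factor (IGF) genes 4 of 16 rose (25%, beside 3.75% of all genes) and 0 fell (list median 0.48). Igf1, the growth factor itself, read 0.788, 0, 0.610 and 0.360 CPM on day 5 and 4.56, 26.4, 3.19 and 3.84 CPM on day 10, without overlap and far highest in library 2 (log2 2.41 ± 0.46, adjusted p = 0.0078). The binding proteins Igfbp7 (log2 1.37 ± 0.29, adjusted p = 0.014) and Igfbp4 (log2 1.31 ± 0.28, adjusted p = 0.015) rose too, and the protease Htra1 is the fourth. Igfbp4 was also the 1 gene of 6 measured Wnt antagonists that passed. The growth hormone receptor Ghr, at 80.3 to 106 and 71.5 to 117 CPM, did not pass (log2 -0.03 ± 0.16, adjusted p = 0.92). The result for Igf1 held in all 8 fits without 1 library. The call was lost for Igfbp7 without library 3 of day 5, and Igfbp4 without library 3 or 4 of day 5 (adjusted p = 0.052 to 0.058 over these losses). On the 8 libraries alone, Igfbp7 passed and the others did not (adjusted p = 0.074 to 0.12).

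BMP, TGF-beta and FGF genes gave fewer calls. Their shares of measured members that rose were 7.69%, 14.3% and 14.3%, beside 3.75% of all genes. Of 26 measured BMP genes Bmper and Fst, both extracellular regulators of BMP or activin ligands, were the 2 that rose (list median 0.13). Bmper read 9.97, 10.5, 7.44 and 8.15 CPM and then 38.8, 68.0, 24.0 and 25.8 CPM (log2 1.89 ± 0.26, adjusted p = 0.00080), and Fst 11.8, 26.7, 10.8 and 9.29 CPM and then 38.9, 24.2, 43.8 and 30.7 CPM, with overlap (log2 1.26 ± 0.32, adjusted p = 0.032). Of 21 TGF-beta genes 3 rose and with the block 5. They were Pmepa1 (log2 0.99 ± 0.12, adjusted p = 0.00041) and Skil (log2 0.81 ± 0.12, adjusted p = 0.0014), both targets that restrain the pathway, and Ltbp2, a matrix protein of the latent TGF-beta binding family (log2 1.26 ± 0.34, adjusted p = 0.042).

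Of 14 FGF genes 2 rose. Fgfr2, a receptor of bone-forming cells, read 239, 209, 173 and 191 CPM and then 377, 393, 292 and 325 CPM (log2 0.77 ± 0.13, adjusted p = 0.0030), and Dusp4, a phosphatase that switches off MAP kinases, had a log2 difference of 1.405 ± 0.31 (adjusted p = 0.017). Fgfr3, the receptor that slows growth plate chondrocytes, was at 56.1 to 88.5 CPM and 66.5 to 144 CPM and did not pass (adjusted p = 0.11). Limma called 0 of the 6 measured genes of the C-type natriuretic peptide pathway (2 at an unadjusted p under 0.05, edgeR 0, DESeq2 2, with the block 2). Bmper, Pmepa1, Skil and Fgfr2 passed whichever single library was left out. The threshold was missed for Fst without library 1, 3 or 4 of day 5 or library 1, 3 or 4 of day 10, Ltbp2 without library 1, 3 or 4 of day 5 or library 1, 2 or 4 of day 10, and Dusp4 without library 3 or 4 of day 5 (adjusted p = 0.05032 to 0.11 over these losses). When days 1 and 3 were left out, Bmper, Pmepa1, Skil and Fgfr2 passed and the others did not (adjusted p = 0.094 to 0.12).

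Signals to osteoclasts and vessels were split. Tnfrsf11b, osteoprotegerin, the decoy receptor that blocks osteoclast formation, read 3.32, 11.2, 1.16 and 2.46 CPM on day 5 and 15.7, 43.0, 15.96 and 10.9 CPM on day 10 (log2 2.14 ± 0.44, adjusted p = 0.013), with library 4 of day 10 just below library 2 of day 5. Its ligand Tnfsf11 (RANKL) lay below the level filter, with 57 reads over the 4 libraries of day 5 and 75 over those of day 10. Vegfa, the angiogenic factor of hypertrophic cartilage, read 13.6, 11.6, 24.8 and 27.9 CPM and then 24.8, 118, 36.7 and 45.6 CPM and did not pass (log2 1.33 ± 0.48, adjusted p = 0.11). Tnfrsf11b was the 1 of 14 measured genes of this list that passed. Among 17 genes of vitamin D, glucocorticoid and retinoid response the 1 that passed was Rbp4, the retinol carrier, at 4.37 to 15.7 and 20.3 to 66.4 CPM (log2 2.02 ± 0.37, adjusted p = 0.0065), and with the block 2 rose. Tnfrsf11b and Rbp4 passed whichever single library was left out. In the fit of the 8 libraries alone, none of the called genes just described passed (adjusted p = 0.076 to 0.10). Tnfrsf11b and Rbp4 passed there with the block (adjusted p = 0.0015 to 0.0082).

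Some enzymes that process collagen rose. Of 27 measured genes of collagen modification and crosslinking 5 rose and 0 fell (list median 0.37), and with the block 9 were higher and 3 lower. Adamts14, which trims procollagen, read 7.88, 3.92, 3.48 and 3.89 CPM on day 5 and 23.9, 34.3, 16.1 and 25.01 CPM on day 10 (log2 2.17 ± 0.25, adjusted p = 0.00021). Loxl4, a lysyl oxidase that crosslinks fibrils, read 9.57, 14.3, 6.83 and 8.15 CPM and then 25.1, 88.1, 31.7 and 45.0 CPM (log2 2.06 ± 0.34, adjusted p = 0.0028). F13a1, the transglutaminase factor XIII subunit A, read 31.8, 50.1, 13.1 and 16.4 CPM and then 113, 111, 61.4 and 57.4 CPM (log2 1.70 ± 0.37, adjusted p = 0.016). The 3 genes lay higher in every day 10 library than in any of day 5. The procollagen hydroxylases P3h1 and Plod1 rose less, by log2 0.77 ± 0.15 and 0.64 ± 0.15 (adjusted p = 0.010 and 0.023).

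Chst15, which adds sulfate to chondroitin sulfate chains, was the 1 of 25 measured genes of proteoglycan synthesis that passed, and with the block 4 were higher and 1 lower. It read 2.42, 3.51, 1.77 and 2.04 CPM on day 5 and 19.9, 37.1, 18.4 and 16.4 CPM on day 10, low in every day 5 library and high in every day 10 library (log2 2.76 ± 0.26, adjusted p = 5.7e-05). Of 28 genes for secretion and the unfolded protein response 27 differences were above 0, with a list median of 0.38, yet only 2 passed and with the block 8. They were Creb3l1, a membrane-bound factor needed for collagen secretion in bone, at 12.2, 14.4, 5.98 and 5.21 CPM and then 92.8, 361, 18.5 and 30.7 CPM (log2 2.81 ± 0.65, adjusted p = 0.021), and Sec24d, a coat protein of procollagen export, at 65.0 to 91.6 and 103 to 184 CPM (log2 0.76 ± 0.17, adjusted p = 0.018). The result for Adamts14, Loxl4, P3h1 and Chst15 held in all 8 fits without 1 library. Leaving out 1 library ended the call for F13a1, Plod1, Creb3l1 and Sec24d without library 3 or 4 of day 5 (adjusted p = 0.061 to 0.072). Fitted without days 1 and 3, Adamts14, Loxl4 and Chst15 passed and the others did not (adjusted p = 0.079 to 0.13). F13a1, Creb3l1 and Sec24d passed there with the block (adjusted p = 0.0065 to 0.025).

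Cholesterol synthesis held many of the genes that rose, the largest share of called members among the 33 gene lists in the test over all 15 libraries. Of 26 measured genes of cholesterol and fatty acid synthesis 13 rose (50%) and 0 fell, 25 differences were above 0 and the list median was 0.68. Scd2, a fatty acid desaturase, read 1267, 818, 679 and 645 CPM on day 5 and 1911, 1842, 1538 and 1641 CPM on day 10 (log2 1.07 ± 0.21, adjusted p = 0.0089). Sqle, squalene epoxidase, read 102, 108, 88.5 and 82.3 CPM and then 211, 138, 200.1 and 186 CPM (log2 0.93 ± 0.16, adjusted p = 0.0043). Fdps, farnesyl diphosphate synthase, read 61.2, 64.2, 61.8 and 56.7 CPM and then 133, 97.8, 111 and 122 CPM (log2 0.91 ± 0.15, adjusted p = 0.0028). None of the 3 genes overlapped between the days. Unlike the osteogenic genes, the list was lowest of day 10 in library 2, with a median of 0.21 against 0.71 to 0.84 in the others, and without that library 16 members rose. Without library 3 or 4 of day 5 the members that rose numbered 4, and in the fit of the 8 libraries alone 3. In each of these fits the hedgehog and PTHrP list, with 3 of 17, held a larger share. Gm43738 shares 26.7% of the exon bases of Fdps. Scd2, Sqle and Fdps passed whichever single library was left out. With days 1 and 3 out of the fit, Sqle and Fdps passed and Scd2 did not (adjusted p = 0.062). Scd2 passed there with the block (adjusted p = 0.036).

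Of 28 measured glycolysis and hypoxia genes 6 rose, with 0 lower and a list median of 0.56. Epas1, the hypoxia-inducible factor HIF-2 alpha, read 2.82, 4.55, 3.11 and 3.18 CPM on day 5 and 12.9, 24.0, 15.4 and 26.7 CPM on day 10, without overlap (log2 2.19 ± 0.21, adjusted p = 6.1e-05). The glycolytic enzymes Aldoa, Eno1 and Pfkl rose by log2 0.87 ± 0.20, 0.87 ± 0.20 and 0.77 ± 0.21 (adjusted p = 0.019, 0.020 and 0.041). Library 2 of day 10 held the highest value of each enzyme, and its median for the list was 1.44 against 0.19 to 0.32 in the other day 10 libraries. Without it 4 members rose, and 1 rose without library 3 or 4 of day 5 or in the fit of the 8 libraries alone. Limma called 0 of the 19 genes of serine and one-carbon metabolism (6 at an unadjusted p under 0.05, edgeR 1, DESeq2 4, with the block 1). Yet 18 of these 19 differences were above 0 (list median 0.42), and 6 were higher without overlap, beside 6.22% of all genes. The medians of that list by library were -0.034 to 0.040 on day 5 and 0.16 to 0.94 on day 10. Limma called 0 of the 27 lysosome and autophagy genes (6 at an unadjusted p under 0.05, edgeR 0, DESeq2 3, with the block 1). With any single library left out, Epas1 still passed. The threshold was missed for Aldoa and Eno1 without library 3 or 4 of day 5, and Pfkl without library 1, 2, 3 or 4 of day 5 or library 2 or 4 of day 10 (adjusted p = 0.05010 to 0.11 over these losses). On the 8 libraries alone, Epas1 passed and the others did not (adjusted p = 0.13 to 0.19).

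Interferon response and MHC class I genes were higher on day 10 in 26 of 28 measured members, with a list median of 0.80, the highest of the gene lists with 10 or more members. Of these 6 passed, and with the block 15 were higher and 1 lower. Without library 3 or 4 of day 5 those that passed numbered 2, and in the fit of the 8 libraries alone 0. Oasl2, an antiviral effector, read 1.58, 13.4, 2.01 and 2.46 CPM on day 5 and 8.74, 12.6, 20.8 and 19.3 CPM on day 10 (log2 1.81 ± 0.44, adjusted p = 0.027). Bst2, tetherin, read 13.9, 36.2, 12.6 and 12.3 CPM and then 33.1, 59.1, 58.4 and 90.2 CPM (log2 1.70 ± 0.35, adjusted p = 0.013), and Ifi27 11.4, 32.7, 10.6 and 11.4 CPM and then 23.1, 41.9, 57.7 and 63.0 CPM (log2 1.503 ± 0.38, adjusted p = 0.032). In these 3 genes library 2 of day 5 stood near the day 10 level, and it overlapped the day 10 libraries. H2-Q4, a nonclassical MHC class I gene with close copies, rose by 1.81 ± 0.37 (adjusted p = 0.012), without overlap. The result for H2-Q4 held in all 8 fits without 1 library. Adjusted p rose above 0.05 for Oasl2 without library 1, 3 or 4 of day 5 or library 3 or 4 of day 10, Bst2 without library 3 or 4 of day 5, and Ifi27 without library 1, 3 or 4 of day 5 or library 2, 3 or 4 of day 10 (adjusted p = 0.05031 to 0.11 over these losses). When days 1 and 3 were left out, none of the called genes just described passed (adjusted p = 0.070 to 0.14). H2-Q4 and Bst2 passed there with the block (adjusted p = 0.012 to 0.045).

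Inflammatory genes showed no common direction. Of 9 measured complement and acute-phase genes 1 rose and 1 fell. Il1rn, the interleukin-1 receptor antagonist, read 1.69, 8.64, 0.671 and 0.659 CPM on day 5 and 11.5, 3.62, 31.5 and 20.3 CPM on day 10 (log2 2.28 ± 0.56, adjusted p = 0.027), and Lcn2, lipocalin-2, read 3.55, 14.9, 12.1 and 15.3 CPM and then 1.01, 0.230, 3.87 and 6.33 CPM (log2 -1.86 ± 0.48, adjusted p = 0.035). Both overlapped between the days. Limma called 0 of 17 chemokines and inflammatory genes (3 at an unadjusted p under 0.05, edgeR 0, DESeq2 1, with the block 2). Leaving out 1 library ended the call for Il1rn without library 1, 3 or 4 of day 5 or library 3 or 4 of day 10, and Lcn2 without library 2, 3 or 4 of day 5 or library 1 or 2 of day 10 (adjusted p = 0.053 to 0.11 over these losses). In the fit of the 8 libraries alone, none of the called genes just described passed (adjusted p = 0.15 to 0.17).

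Proliferation genes did not separate the days. Mki67, a marker of dividing cells, read 351, 102, 212 and 189 CPM on day 5 and 352, 415, 176 and 166 CPM on day 10 (log2 0.39 ± 0.36, adjusted p = 0.55). It was high in libraries 1 and 2 of day 10 and in library 1 of day 5, and lowest in library 2 of day 5. Limma called 0 of the 31 G2 and M phase genes, as did edgeR and DESeq2, with 0 at an unadjusted p under 0.05. Their list medians in day 10 libraries 1 to 4 were 0.47, 0.77, -0.22 and -0.42 relative to day 5. Of 32 S phase genes the 1 that passed was Cdc6, which loads the replicative helicase (log2 0.86 ± 0.22, adjusted p = 0.035), and with the block 2 rose.

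Of 19 measured regulators of cell cycle exit 2 rose and 1 fell, and with the block 4 and 2. Cdkn1a, the inhibitor p21, read 11.8, 15.96, 17.3 and 19.2 CPM on day 5 and 44.6, 206, 30.8 and 35.8 CPM on day 10 (log2 1.78 ± 0.42, adjusted p = 0.024). Cdkn1b, the inhibitor p27, went the other way, from 188, 180.5, 185 and 189.5 CPM to 125, 106, 146 and 128 CPM (log2 -0.56 ± 0.10, adjusted p = 0.0071). Both were free of overlap. Cyclin D2 (Ccnd2) rose by 0.80 ± 0.20 (adjusted p = 0.030). With any single library left out, Cdkn1b still passed. The call was lost for Cdkn1a and Ccnd2 without library 1, 3 or 4 of day 5, and Cdc6 without library 2, 3 or 4 of day 5 or library 1, 2 or 3 of day 10 (adjusted p = 0.052 to 0.11 over these losses). Fitted without days 1 and 3, none of the called genes just described passed (adjusted p = 0.059 to 0.14). Ccnd2 passed there with the block (adjusted p = 0.033).

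Cytosolic ribosomal protein genes were lower on day 10 in 34 of 35 members, with a list median of -0.31, but 2 passed and with the block 7. Rpl22, a protein of the large subunit, fell, with 415 to 535 CPM on day 5 and 329 to 411 CPM on day 10 (log2 -0.45 ± 0.11, adjusted p = 0.027). The list medians of the 4 day 10 libraries, -0.50 to -0.19, overlapped those of day 5, -0.36 to 0.33. The threshold was missed for Rpl22 without library 2, 3 or 4 of day 5 or library 1 of day 10 (adjusted p = 0.057 to 0.094). With days 1 and 3 out of the fit, Rpl22 did not pass (adjusted p = 0.15).

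**Figure D4:**
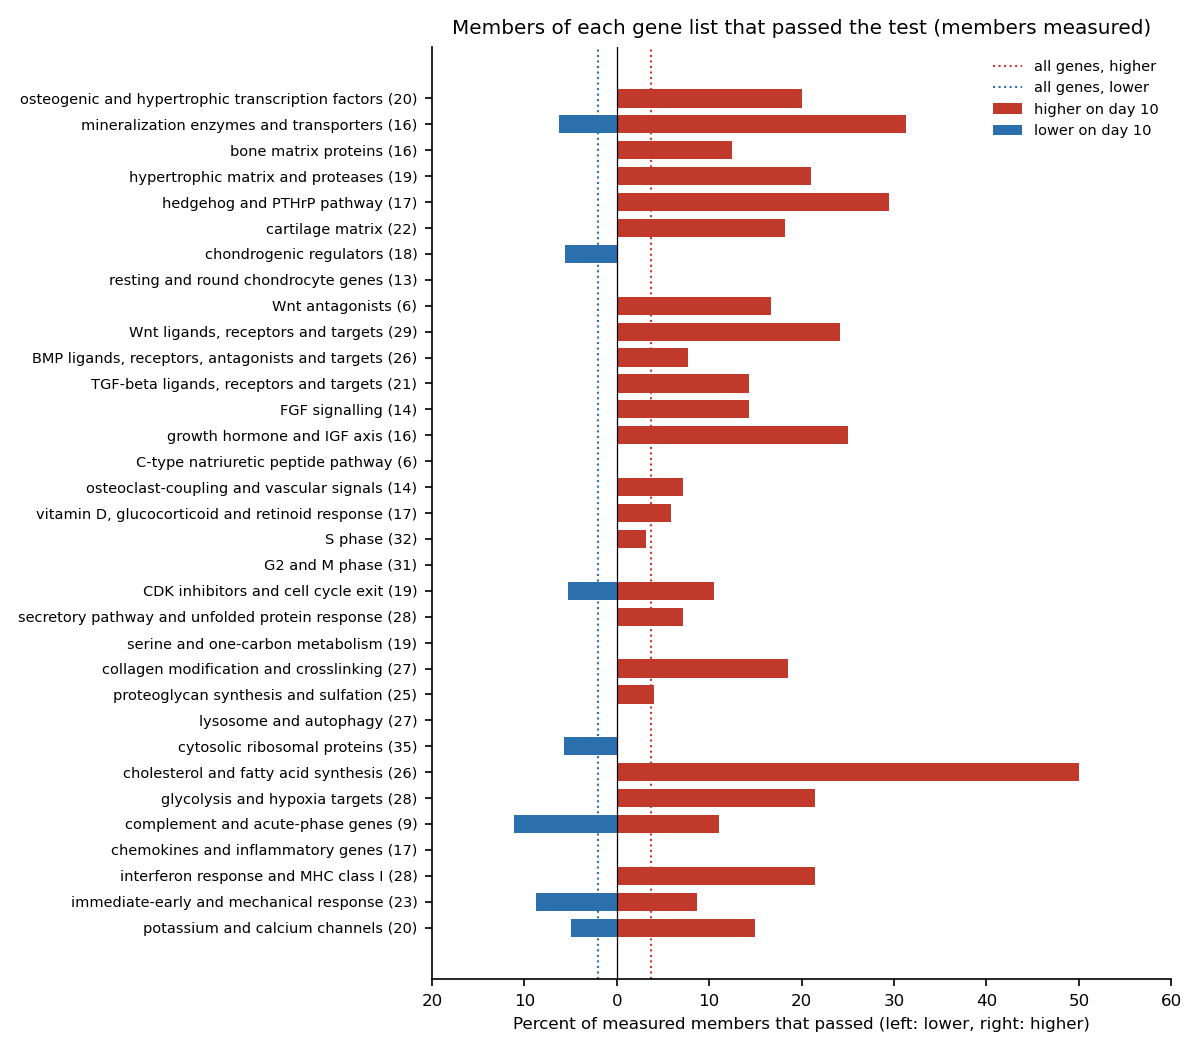
Bars show the percent of measured members of each of 33 gene lists that passed limma's test as higher (right, red) or lower (left, blue) on day 10, with the number of measured members in brackets and dotted lines at the share of all genes tested (3.75% and 2.02%). Cholesterol and fatty acid synthesis reaches 50%, mineralization enzymes and transporters 31.25% and hedgehog and PTHrP pathway 29.4%.

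The 10 genes with the highest differences, among genes without overlap and with 5 CPM or more on either day, included Alpl, Sp7 and Gli1, described above, and 7 from outside the maturation lists. Col8a1, a chain of the network-forming collagen VIII (chromosome 16, 57624258 to 57754737), read 12.6, 10.8, 10.12 and 12.4 CPM on day 5 and 71.8, 139, 79.8 and 77.5 CPM on day 10 (log2 2.85 ± 0.25, adjusted p = 2.4e-05). Cemip, which takes part in the breakdown of hyaluronan, read 0.957, 4.15, 1.46 and 1.44 CPM and then 61.0, 63.1, 9.63 and 8.81 CPM (log2 3.19 ± 0.53, adjusted p = 0.0032). Galnt3, a glycosyltransferase that protects the phosphate hormone FGF23 from cleavage, read 1.13, 2.65, 0.366 and 0.539 CPM and then 25.6, 77.9, 5.81 and 4.52 CPM (log2 3.06 ± 0.64, adjusted p = 0.014). Col8a1 was up in all 4 libraries of day 10 to a like degree apart from library 2, whereas Cemip and Galnt3 were several-fold higher in libraries 1 and 2 than in 3 and 4.

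Prex1, an activator of the small GTPase Rac, read 1.24, 0.461, 0.854 and 0.599 CPM on day 5 and 30.7, 141, 4.08 and 8.13 CPM on day 10 (log2 3.60 ± 0.70, adjusted p = 0.0086). Fat3, an atypical cadherin, read 0.113, 0.576, 0.305 and 0.180 CPM and then 13.9, 67.3, 3.66 and 4.29 CPM (log2 3.297 ± 0.59, adjusted p = 0.0050). Cdsn, corneodesmosin, an adhesion protein best known from the epidermis, read 3.04, 2.82, 3.84 and 2.76 CPM and then 19.6, 83.6, 25.7 and 36.6 CPM (log2 3.15 ± 0.73, adjusted p = 0.021). All 3 had less than 5 CPM in each day 5 library and were highest in library 2 of day 10. Col8a1, Cemip, Prex1 and Fat3 passed whichever single library was left out. Adjusted p rose above 0.05 for Galnt3 without library 3 of day 5, and Cdsn without library 3 or 4 of day 5 (adjusted p = 0.051 to 0.062 over these losses). On the 8 libraries alone, Col8a1 and Cdsn passed and the others did not (adjusted p = 0.054 to 0.097). Cemip, Galnt3 and Fat3 passed there with the block (adjusted p = 0.017 to 0.033).

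Kcnma1, the pore of the BK potassium channel, is the tenth of them and led the 20 measured potassium and calcium channel genes, of which 3 rose and 1 fell (with the block 6 and 2). It read 0.619, 0.864, 0.0610 and 0.360 CPM on day 5 and 30.5, 110.2, 4.45 and 2.86 CPM on day 10 (log2 3.51 ± 0.74, adjusted p = 0.014). The calcium channel genes Cacna1d (log2 1.77 ± 0.30, adjusted p = 0.0038) and Cacnb3 (log2 1.56 ± 0.30, adjusted p = 0.0090) rose, and the potassium channel gene Kcnk5 fell, with 7.66 to 13.6 CPM on day 5 and 5.00 to 6.10 CPM on day 10 (log2 -0.82 ± 0.16, adjusted p = 0.0078). All 4 were without overlap between the days. With any single library left out, Kcnma1, Cacna1d, Cacnb3 and Kcnk5 still passed. When days 1 and 3 were left out, none of the called genes just described passed (adjusted p = 0.061 to 0.11). Kcnma1, Cacna1d and Cacnb3 passed there with the block (adjusted p = 0.028 to 0.044).

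Among 23 immediate-early and mechanical response genes 2 rose and 2 fell, and with the block 5 and 2. The transcription factors Nr4a3 (log2 1.26 ± 0.29, adjusted p = 0.019) and Egr2 (log2 1.06 ± 0.28, adjusted p = 0.037) rose. Piezo2, a stretch-gated channel, fell from 68.2, 45.1, 40.7 and 40.8 CPM to 14.5, 25.3, 23.6 and 35.4 CPM (log2 -0.98 ± 0.27, adjusted p = 0.043), and Ankrd1, a target of the mechanically regulated factor YAP, fell with 2.82 to 5.99 and 1.52 to 2.24 CPM (log2 -0.81 ± 0.21, adjusted p = 0.034). The call was lost for Nr4a3 without library 3 or 4 of day 5, Egr2 without library 1, 3 or 4 of day 5 or library 2 or 4 of day 10, and Piezo2 without library 1, 2, 3 or 4 of day 5 or library 1, 2 or 3 of day 10. The same held for Ankrd1 without library 2, 3 or 4 of day 5 or library 1, 3 or 4 of day 10 (adjusted p = 0.051 to 0.11 over these losses). In the fit of the 8 libraries alone, Nr4a3 passed and the others did not (adjusted p = 0.11 to 0.17). Egr2 passed there with the block (adjusted p = 0.023).

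Fewer genes fell by a large amount. Rmst, a long noncoding RNA (chromosome 10, 92071037 to 92165170), had the lowest difference, from 15.4, 5.19, 12.5 and 11.8 CPM to 1.58, 1.26, 1.67 and 0.678 CPM (log2 -2.35 ± 0.36, adjusted p = 0.0017). Osmr, the receptor of oncostatin M, read 140.4, 173, 257 and 264 CPM on day 5 and 57.7, 32.4, 99.7 and 70.1 CPM on day 10 (log2 -1.73 ± 0.28, adjusted p = 0.0025). Enpp2, autotaxin, the enzyme that makes lysophosphatidic acid, read 915, 463, 633 and 645 CPM and then 189, 126, 329.6 and 284 CPM (log2 -1.56 ± 0.26, adjusted p = 0.0032). These 3 are among the 10 lowest differences, which were taken only from genes whose libraries did not overlap. That every day 10 library lay below every day 5 library was thus set by the choice.

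L1cam, a neural adhesion molecule, read 10.8, 7.84, 27.2 and 26.4 CPM and then 2.09, 0.689, 6.75 and 7.68 CPM (log2 -1.96 ± 0.50, adjusted p = 0.034). On both days it was higher in libraries 3 and 4 than in libraries 1 and 2. Plekha7, an adherens junction protein, fell, with a log2 difference of -1.95 ± 0.34, as did Gpr179, an orphan receptor of the retina, with -1.91 ± 0.34, Ano5, an anoctamin of bone and muscle, with -1.64 ± 0.37 and the RNA-binding Raver2 with -1.61 ± 0.26 (adjusted p = 0.0041, 0.0054, 0.020 and 0.0024). Msmp had a log2 difference of -1.54 ± 0.37 (adjusted p = 0.026), but all of its exon bases are shared with Rgp1 on the other strand, and 26.3% of those of Rmst with Gm26700. Rmst, Osmr, Enpp2, Plekha7, Gpr179 and Raver2 passed whichever single library was left out. The threshold was missed for L1cam without library 3 or 4 of day 5 or library 1 or 2 of day 10, Ano5 without library 3 or 4 of day 5, and Msmp without library 3 or 4 of day 5 or library 2 of day 10 (adjusted p = 0.059 to 0.11 over these losses). Fitted without days 1 and 3, Rmst, Osmr, Enpp2, Plekha7 and Raver2 passed and the others did not (adjusted p = 0.059 to 0.14). L1cam, Gpr179 and Ano5 passed there with the block (adjusted p = 0.0049 to 0.017).

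**Figure D5:**
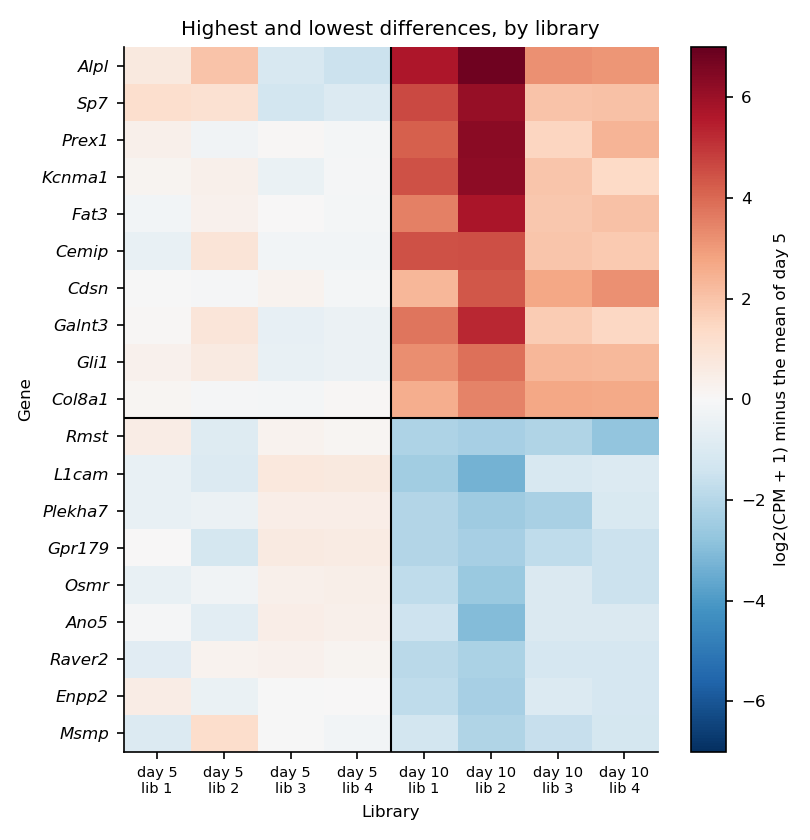
Colours give log2(CPM + 1) minus the gene's day 5 mean for the 10 genes with the highest and 9 of the 10 with the lowest log2 differences (rows) in each library (columns). Only genes whose libraries did not overlap between the days were eligible. By that choice the day 10 columns are red throughout for the upper genes and blue throughout for the lower genes. The red of the upper genes is deepest in library 2.

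Markers of other cell types gave few calls in number, from lists with few measured members apart from the fibroblast and tendon list. Blood cell genes summed to 0.628 CPM or less in every library, with 0 to 2 of 15 above 0. Endothelial genes summed to 17.2 to 32.4 CPM on day 5 and 19.6 to 32.4 CPM on day 10, and macrophage and osteoclast genes to 22.5 to 38.9 and 23.3 to 54.5 CPM. Few of these genes were measured: 0 of 15 blood cell, 2 of 12 endothelial and 3 of 15 macrophage and osteoclast genes. Of the epithelial list 1 of 10 was measured, and of the fibroblast and tendon list 10 of 15. Limma, edgeR and DESeq2 called 0 of the measured members of these lists, with 0 at an unadjusted p under 0.05. Apart from the fibroblast and tendon list, too few members were tested for a count of 0 to be informative. Of 5 measured adipocyte markers limma and edgeR called 0 and DESeq2 1, with 3 at an unadjusted p under 0.05. Of 5 measured muscle markers 2 rose (40%, beside 3.75% of all genes), Tnnc2 (log2 1.23 ± 0.28, adjusted p = 0.019) and Smtn (log2 0.52 ± 0.14, adjusted p = 0.041). The muscle list summed to 158 to 197 CPM and 214 to 332 CPM. Ube2c, on the other strand, shares 74% of the exon bases of Tnnc2. Of 4 measured neural and glial markers 2 fell (50%, beside 2.02% of all genes), Map2 among them (log2 -0.91 ± 0.22, adjusted p = 0.026). The neural and glial list had 3 differences below 0 and 1 above, at log2 1.93, and edgeR called 1 member higher and 2 lower. Its sums were 30.6 to 50.2 CPM and 17.5 to 63.8 CPM. Adjusted p rose above 0.05 for Tnnc2 without library 3 of day 5, Smtn without library 2, 3 or 4 of day 5 or library 2 or 4 of day 10, and Map2 without library 1, 3 or 4 of day 5 or library 2 or 4 of day 10 (adjusted p = 0.05036 to 0.13 over these losses). With days 1 and 3 out of the fit, none of the called genes just described passed (adjusted p = 0.12 to 0.14). Map2 passed there with the block (adjusted p = 0.029).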

How the data were processed

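The labels list total RNA of wild-type GPLC cells on days 1, 3, 5 and 10, and the table holds 3 libraries for day 1 and 4 for each other day. Per the submitters' processing notes STAR, featureCounts and edgeR were used on GRCm38, without versions. The sources used here give neither the annotation nor the strand setting, so where genes overlap on both strands their reads may be mixed. The deposited signal per gene (24499 genes) was read as CPM scaled by TMM. Its column totals ran from 949878 to 1095441, whereas plain CPM would give the same total in every column. That the further scaling was TMM was inferred. In each column 100% of the values came out as a whole number when divided by its smallest value above 0 (tolerance 0.001). These multiples were taken as reads and used only for the tests on counts.

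The main test was limma 3.58.1 (R 4.3.3) with a trended prior on log2(CPM + 1) of the 12109 genes with a mean of the day means of 1 CPM or more, all 15 libraries in 1 fit, two-sided, with Benjamini-Hochberg adjustment at 0.05. Each day counts as a group and each library as a replicate. No fit imputed or dropped a library unless stated. The fitting steps were run on simulated counts with known changes. These had the same spread on every day and no link between same-numbered libraries, unlike the data, so they do not give the error rate here. Alternatives were pseudocounts of 0.25 and 5, no filter or one at 5 CPM, the 8 libraries alone, a variance for each day, no TMM scaling, DESeq2 size factors, edgeR 4.0.16 and DESeq2 1.42.0 on the recovered reads, a replicate block, libraries 3 and 4 averaged, numbers 1 and 2 or 3 and 4 alone, and leaving out each library or number.

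The labels give no pairing. Deviations from the day mean correlated across genes at 0.304, 0.234, 0.310 and 0.279 for libraries of days 5 and 10 with the same number 1 to 4, and each library correlated best with its own number. Number 4 of day 5 also correlated with number 3 of day 10, at 0.224. The numbers were taken to pair the libraries, and values with the block are printed where they change a call or move a count. The pairing was checked on days 5 and 10 only, while the block over all 15 libraries also used the numbers of days 1 and 3.

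There were 33 gene lists and 9 marker lists. The comparison, the lists and the rule for named genes were chosen with earlier results of these data known, so list counts are descriptions beside the share of all genes. The genes named are 36 fixed growth plate genes, the 10 highest and 10 lowest differences among genes that passed, did not overlap and reached 5 CPM on either day (without predicted, clone and small RNA genes), up to 4 called members per list at each end, and the members of lists with 5 or fewer calls. Some genes that this rule names are not reported here. Tnfsf11 is given in reads because it fell below the filter. Gene coordinates and exon overlaps come from GENCODE M21 on GRCm38, to which 23661 symbols matched, and promoter windows from RefSeq (GRCm38.p6).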

Additional observations from a re-analysis of the deposited data

Results flagged for a closer look

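In 15 of 226 groups of 4 libraries (a named gene on day 5 or day 10) 1 library lay apart, with a gap to its nearest neighbour that took up more of the group's range than Dixon's 95% critical value for 4 values allows. Chance alone flags about 1 in 20 such groups. Values are CPM. In library 2 of day 5 these were Bglap2 (0.634), Wnt5a (14.2), Oasl2 (13.4), Bst2 (36.2) and Ifi27 (32.7), all above their group. In library 1 of day 5 they were Phospho1 (34.2) and Adamts14 (7.88), both above, and Raver2 (7.38), below. In library 2 of day 10 they were Igf1 (26.4), Wnt5a (41.04), Ankrd1 (2.24), Col8a1 (139) and Dmp1 (40.1), all above, and in library 4 of day 10 Tnnc2 (12.9), above, and Cdc6 (9.72), below.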

How the results depend on the processing

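The number of genes called moved by more than 1.5 times (from 454 higher and 245 lower) with the 8 libraries alone (115 and 21), a variance for each day (206 and 51), DESeq2 (912 and 426), the replicate block (871 and 636, or 234 and 59 within the 8 libraries), libraries 3 and 4 averaged (81 and 14), libraries 3 and 4 alone (915 and 541) and libraries 1 and 2 alone (14 and 0, where 1181 genes had an unadjusted p under 0.05). The number at least 2-fold lower (53) moved to 108 and 21 with pseudocounts of 0.25 and 5, 119 with edgeR, 115 with DESeq2, 144 with libraries 1 and 2 alone and 152 with libraries 3 and 4 alone. The number at least 2-fold higher (376) moved to 192 with a pseudocount of 5 and 226 with the filter at 5 CPM. Leaving out 1 library or 1 library number gave 77 to 625 genes higher and 12 to 380 lower, 327 to 433 and 54 to 91 by 2-fold, and 792 to 1271 and 719 to 1284 without overlap. In all 12 such fits 61 genes stayed higher and 6 lower. Of the list counts 1687 stayed within 1.5 times and 527 did not.

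Over all 15 libraries the replicate block kept the calls of all 93 named genes that passed and added Dlx5, Col1a1, Col1a2 and Pthlh, and it changed no other named call. None of the 93 changed sign in any alternative. Among named genes that did not pass, signs turned for Sox9 with edgeR (0.088), DESeq2 (0.096) and libraries 3 and 4 alone (0.72), Ghr with DESeq2 (0.010) and libraries 1 and 2 alone (0.037), Spp1 (-0.12) and Col2a1 (-0.89) with libraries 1 and 2 alone, and Mef2c (-0.051) and Mki67 (-0.22) with libraries 3 and 4 alone. Without 1 library or number the log2 differences were -0.405 to 0.31 for Sox9, -0.30 to 0.11 for Sox6, -0.14 to 0.092 for Ghr, -0.12 to 0.82 for Dmp1, -0.17 to 1.03 for Col2a1, -0.053 to 0.80 for Mef2c and -0.15 to 0.67 for Mki67. The cause of these shifts was not tested. Other scalings moved the median of all genes by -0.040 (no TMM) and 0.016 (DESeq2 size factors).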

Other observations

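Some of the named genes that fell after day 5 had been low before it. Of the 18 named genes that fell, 10 had a day 1 level, as mean CPM plus 1, of no more than 0.5 times that of day 5, and 2 had a day 1 level at least 2 times that of day 5. Of the 75 named genes that rose, 27 also had a day 1 level of no more than 0.5 times that of day 5. No such count was made over all genes, so these counts cannot be read as a trait of the genes that fell or rose. Enpp2 had means of 81.6, 623.2, 664 and 232 CPM on days 1, 3, 5 and 10, Osmr 27.3, 69.6, 209 and 65.0 CPM, and Enpp1 30.5, 115.5, 192 and 104 CPM. Lcn2 had 0.0652, 3.00, 11.5 and 2.86 CPM. Of the 75 named genes that rose, 68 had their highest day mean on day 10, and of the 18 that fell 5 had their lowest there. These 2 counts are partly set by the choice of genes, since all were called for a difference between days 5 and 10.

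Some of the genes that rose had been high on day 1. For 7 of the 75 the day 1 level was at least 2 times that of day 5. Col10a1 had the largest ratio, with means of 164, 7.17, 5.17 and 31.6 CPM on days 1, 3, 5 and 10, so its day 10 level stayed below that of day 1. Alpl had means of 38.9, 2.70, 8.21 and 265 CPM on the same days, Ccnd2 188, 92.4, 59.8 and 109 CPM, and Ltbp2 20.6, 3.59, 3.99 and 10.5 CPM. Cdsn alternated, at 4.03, 37.8, 3.12 and 41.4 CPM. These examples were chosen after their values were seen. Both steps share the day 5 libraries, so a chance high or low on day 5 would move them in opposite directions, and no test was made.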
